A study of Mus musculus with 30 samples.

Results

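The addition of a glucagon-like peptide-1 receptor (GLP-1R) agonist to an anti–IL-17A antibody was examined in adipose tissue macrophages (ATMs) of obese mice. All genes of the ATM count table were compared between the 3 libraries of mice given both agents (Combo) and the 3 libraries of mice given the antibody alone. These 6 libraries were taken from 30 samples in all, of which 15 were ATMs and 15 were bone marrow (BM), and 17059 genes were tested.

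Both groups were leptin-deficient Ob/Ob recipients, irradiated with 700 cGy and 400 cGy. The labels give an age of 12 to 14 weeks, while the methods of the study give a lower range for recipients at irradiation. The mice had been transplanted with equal numbers of BM cells of Shp2 E76K/+ LysM-Cre+ donors and of Boy/J competitors. The mutation activates the phosphatase SHP2, and LysM-Cre drives its expression in myeloid cells, so that recipients held mutant, competitor and remaining host cells. From week 8 after transplantation, mice received for 30 days either the antibody (200 µg per mouse, 3 times a week) or the antibody together with beinaglutide, a GLP-1R agonist, at 3 mg/kg. The other ATM groups were Ob/Ob recipients given vehicle (Vehicle) or the agonist alone, and WT recipients. ATMs were sorted as F4/80+ cells from visceral fat, and the labels describe 3 mice a group of both sexes, matched for sex.

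Macrophages of obese fat surround dying adipocytes, take up their lipid and break it down in lysosomes. Cells in this state are known as lipid-associated macrophages and depend on the lipid receptor TREM2. IL-17A is a cytokine of T cells that acts on stromal and myeloid cells through the receptors IL-17RA and IL-17RC, and its targets recruit neutrophils. GLP-1R is a receptor that raises cyclic AMP, known best from pancreatic β cells, and its agonists lower food intake and body weight.

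The 6 libraries held 31854058 to 45300263 counts on genes. The genes that identify macrophages were abundant in both groups, and so were those of fibroblasts. The 18 general macrophage markers summed to 618059 to 626092 normalized counts with the antibody and 447783 to 450680 in Combo. The 14 fibroblast and progenitor genes summed to 585030 to 587144 and 507832 to 520716. The part of fibroblast RNA in the results below was not tested. Adgre1, which encodes the sorting antigen F4/80, gave 29674, 28752 and 28678 normalized counts with the antibody and 13434, 13309 and 13111 in Combo, and Cd68 averaged 53297 and 28122. Sex-linked genes, however, split the groups. Xist, transcribed from the inactive X chromosome of female cells, gave 0, 53 and 0 counts in the antibody libraries and 1253, 1400 and 1098 in Combo. The Y-linked gene Ddx3y gave 4413, 3892 and 3344 counts with the antibody and 309, 224 and 410 in Combo, and Eif2s3y, Kdm5d and Uty differed in the same direction. Vehicle resembled Combo in Xist (747 to 1024 counts), and GLP-1R agonist and WT resembled the antibody group (0 to 24 counts). The BM libraries were split in the same way, with 87 to 125 Xist counts with the antibody and 3382 to 3555 in Combo. These values go against groups matched for sex, and in every result below the added agonist and the sex of the cells cannot be told apart.

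A gene was called when edgeR's quasi-likelihood test gave a Benjamini-Hochberg adjusted p below 0.05 and the log2 fold change passed 1 in either direction. By this rule 2429 of 17059 genes (14.2%) were called, 637 higher in Combo (3.73%) and 1792 lower (10.5%). Without the fold limit 28.6% of genes passed. The median log2 fold change of all genes was -0.03. Of the genes that fell, 982 (54.8%) had 3 counts or fewer in every Combo library, while 97 (15.2%) of those that rose had 3 or fewer in every antibody library. Among the 13383 genes with at least 10 counts in each of the 6 libraries, a filter that a change to near 0 itself decides, 450 rose and 442 fell.

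**Figure D1:**
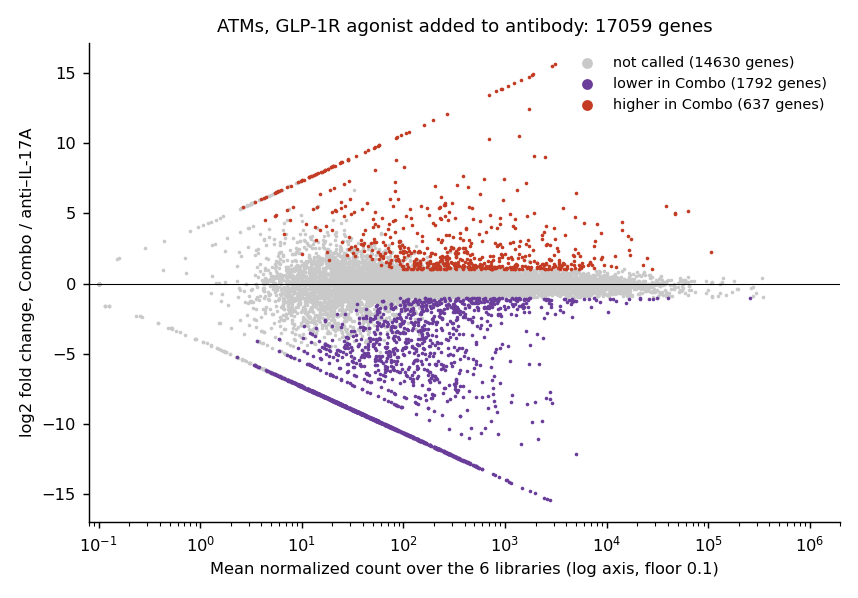
The log2 fold change of Combo over anti–IL-17A antibody (vertical axis) is plotted for 17059 genes against the mean normalized count of the 6 libraries (horizontal log axis). Red points are the 637 genes called higher, purple points the 1792 called lower and grey points the rest, and the straight edges are genes with no counts in one group.

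Transcripts of organs other than fat also divided the groups. Of 40 spermatid and sperm genes, a list chosen after its values were seen, 37 fell in Combo, where 10.5% of all genes did. Akap4, a scaffold protein of the sperm tail, gave 4812, 6123 and 5691 normalized counts with the antibody and 0 in each Combo library, at least 2040-fold lower. Smcp, a protein of the sperm mitochondrial capsule, gave 5139, 4760.3 and 4724 normalized counts with the antibody and 0 in Combo, at least 1800-fold lower. The other genes of largest decrease were Tuba3b and Tuba3a (2 near-identical α-tubulins of testis that can share reads), Atp8b3, Spz1, Spata18, Mael, Spata20 and the kidney gene Umod. Of 25 epididymis and vas deferens genes, 21 fell and 1 rose (Adam28). Mean sums of the sperm genes were 80333 normalized counts with the antibody and 4846 in Combo. They were 63682 with the agonist alone, 19473 in WT and 5183 in Vehicle. The epididymis sums were, in the same order, 23374, 545, 78176, 563312 and 1060. Groups with few Xist counts (antibody, agonist alone and WT) thus held more of both than Vehicle and Combo. Of 24 kidney tubule genes, also listed after their values were seen, 19 fell, including Slc12a1 and Cdh16. Their mean sum did not split that way (34348 in Combo, 32420 in WT).

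In the opposite direction, all 23 pancreatic acinar genes tested rose, where 3.73% of all genes did. Cel, the bile salt-dependent lipase of pancreatic juice, had 0 counts in each antibody library and 6371, 6377 and 5839 normalized counts in Combo, at least 2740-fold higher. The 9 other genes of largest increase were digestive enzymes and further secreted or granule proteins of acinar cells, namely Cela2a, Clps, Pnlip, Cela3b, Pnliprp1, Try4, Cpa1, Reg1 and Gp2. All 10 had 0 normalized counts in every antibody library. The summed level of the acinar list ranged from 629.9 to 970.3 normalized counts with the antibody and from 62056 to 63200.3 in Combo. Of 30 mucosal epithelium genes, a further list chosen after its values were seen, 28 rose. The part of RNA from these organs in the results below was not tested beyond the values given beside them.

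The genes of lipid-associated macrophages were largely lower when the agonist was added. Of 20 genes, 6 fell (10.5% of all genes did) and none rose by edgeR's test, 19 were lower at an adjusted p below 0.05 with no fold limit (17.9% of all genes were), and the median log2 fold change was -0.83, against -0.03 over all genes. Their summed level was 2006910 to 2017960 normalized counts with the antibody and 1111860 to 1134950 in Combo, with no overlap. The 6 were Trem2, the lipid receptor of this state, Itgax, Atp6v0d2, Lipa, Mmp12 and Ctsd.

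Trem2 gave 17483, 17573 and 17115 normalized counts with the antibody and 7392, 7365 and 7457 in Combo (log2 fold change -1.23 ± 0.08, adjusted p = 9.27e-09 by edgeR). Lipa, the lysosomal acid lipase that frees cholesterol and fatty acids from ingested lipid, gave 35070.4, 35049 and 36271 normalized counts with the antibody and 16423, 16121 and 16868 in Combo (log2 fold change -1.11 ± 0.05, adjusted p = 2.32e-10 by edgeR). All 3 Combo libraries lay below all 3 antibody libraries for both genes, as they did in either direction for 43.4% of all genes.

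Itgax, which encodes the integrin CD11c, gave 6674, 6789.9 and 6183 normalized counts with the antibody and 2739, 2293 and 2894 in Combo (log2 fold change -1.31 ± 0.21). Atp6v0d2, a subunit of the proton pump of lysosomes, gave 22666, 22389 and 22462 with the antibody and 10812, 10424 and 9863 in Combo (log2 fold change -1.12 ± 0.07). Mmp12, the elastase of macrophages, gave 52718, 55082 and 55901 with the antibody and 26262, 25881 and 26646 in Combo (log2 fold change -1.05 ± 0.05). In each gene every Combo library lay below every antibody library, by more than the spread within the groups. The groups were also separate, in either direction, for 43.4% of all genes.

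Other members lay just inside the fold limit and were not called. Gpnmb had 163048 ± 689 normalized counts with the antibody and 87578 ± 1880.2 in Combo (mean ± SD, n = 3 libraries), Lgals3 143775 ± 3234 and 73492 ± 736, and Apoe 188262 ± 5925 and 109341 ± 2291. Fabp4, a fatty acid carrier, had a log2 fold change of -0.00 ± 0.03 with overlapping libraries, and Plin2, which coats lipid droplets, one of -0.20 ± 0.02. Whether these carrier and storage genes differed from the lysosomal members was not tested.

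Of 25 genes of lysosomal hydrolases and their partners, 3 fell (Lipa, Ctsd and Hexa), close to the 10.5% of all genes, and none rose. When no fold limit was set, 21 were lower at an adjusted p below 0.05, where 17.9% of all genes were. The median log2 fold change was -0.62. Ctsd, the aspartic protease cathepsin D (chr7:142375911-142388038 on GRCm38), took 343017, 343019 and 351561 normalized counts with the antibody and 169807, 167539 and 169704 in Combo (log2 fold change -1.03 ± 0.02, adjusted p = 1.49e-14 by edgeR). Of its exon length, 34.4% is shared with other annotated genes, and reads there were counted for each. Hexa, a subunit of β-hexosaminidase, had a log2 fold change of -1.03 ± 0.06, which became -0.987 without Combo replicate 1 and -0.997 without Combo replicate 2, inside the limit. Ctsb (-0.98 ± 0.03) and Psap (-0.89 ± 0.03), which are among the most counted genes of these cells, were lower without reaching the limit.

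Of 20 genes of cholesterol efflux and of the liver X receptor (LXR), 2 fell and none rose, close to the 10.5% of all genes that fell, with a median log2 fold change of -0.50. Abcg1, a cholesterol exporter, gave 5499.8, 5094 and 5332 normalized counts with the antibody and 2573, 2302 and 2662 in Combo (log2 fold change -1.08 ± 0.08, adjusted p = 4.99e-08 by edgeR). Pltp, a phospholipid transfer protein, had a log2 fold change of -1.03 ± 0.06, which missed the limit at -0.999 without antibody replicate 3. Genes of cholesterol synthesis lay on the other side, where the median log2 fold change of 24 genes was 0.44 and none passed the fold limit and the test together by edgeR or DESeq2 (13 at an unadjusted p below 0.05). When no fold limit was set, 11 of 24 were higher at an adjusted p below 0.05, and 10.7% of all genes were.

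Of 18 general macrophage markers, only Adgre1 fell, a share below the 10.5% of all genes (chr17:57358691-57483527 on GRCm38, log2 fold change -1.13 ± 0.12, adjusted p = 4.08e-06 by edgeR), none rose, and the median log2 fold change was -0.51. Without the fold limit 14 were lower and 2 higher, against 17.9% and 10.7% of all genes. The complement genes C1qa (-0.89), C1qb (-0.92) and C1qc (-0.94) and Cd68 (-0.92) had log2 fold changes near the limit. Itgam, the integrin CD11b that monocytes and neutrophils also carry, had a positive log2 fold change of 0.49 ± 0.07, as did Cd14 (0.60 ± 0.05). In these bulk libraries, fewer cells of a type and less RNA per cell cannot be told apart. The summed level of the 18 markers was 618059 to 626092 with the antibody and 447783 to 450680 in Combo.

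**Figure D2:**
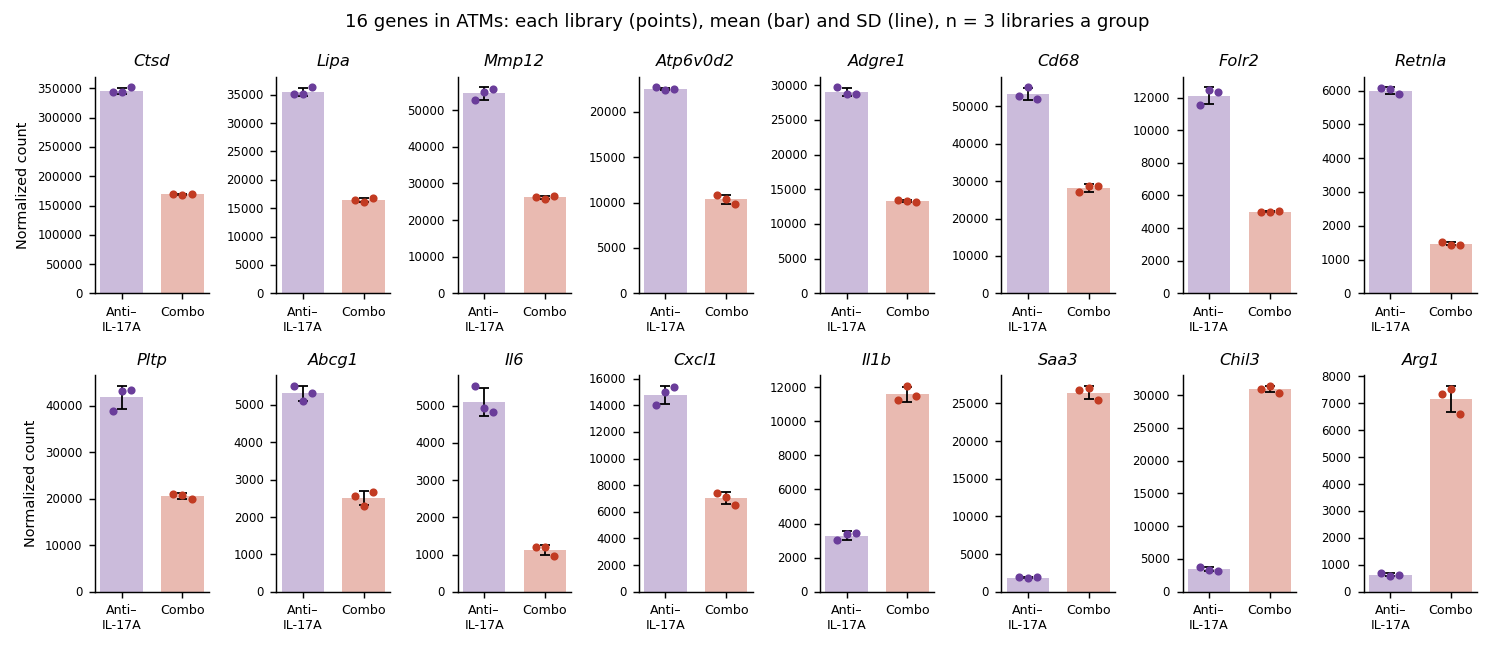
Normalized counts (vertical axes, from 0) of 16 genes are shown for each library of the anti–IL-17A antibody (purple) and Combo (red) groups, with bars at the mean and lines for the SD of 3 libraries. The lysosomal, lipid and macrophage genes and Il6 and Cxcl1 are lower in every Combo library, and Il1b, Saa3, Chil3 and Arg1 are higher.

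Among 17 genes of resident tissue macrophages, only Folr2, a folate receptor, fell (log2 fold change -1.28 ± 0.08), a share below the 10.5% of all genes. None rose, and the median was -0.48. Folr2 gave 11551, 12476 and 12334 normalized counts with the antibody and 4964, 4979 and 5032 in Combo, though 63.1% of its exon length is shared with other genes. The members did not move as one. Igf1 (-0.91), Stab1 (-0.85) and Mrc1 (-0.77), which encodes the mannose receptor CD206, had negative values, while Timd4 (1.52), Lyve1 (0.96) and Cbr2 (0.81) had positive values and were not called. Without antibody replicate 1 or 3, or Combo replicate 1 or 3, 1 member was called higher.

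The genes used to describe M2-like macrophages split. Of 20, Chil3 and Arg1 rose and Retnla fell, where 3.73% and 10.5% of all genes did, and the median log2 fold change was 0.02. Arg1, the arginase that consumes the substrate of nitric oxide synthase, gave 712, 574 and 629 normalized counts with the antibody and 7327, 7546 and 6614 in Combo (log2 fold change 3.49 ± 0.15, adjusted p = 1.32e-10 by edgeR). Chil3, a chitinase-like protein of macrophages and of maturing neutrophils, gave 3750.4, 3325 and 3235 with the antibody and 31018, 31389.8 and 30385 in Combo (log2 fold change 3.17 ± 0.11). Retnla, a secreted protein induced by IL-4, gave 6070.3, 6034 and 5896 with the antibody and 1517, 1444 and 1431 in Combo (log2 fold change -2.03 ± 0.06). Classical markers of the state thus changed in opposite directions, each with no overlap of libraries, as for 43.4% of all genes. Mrc1 was lower without being called, with 6178 ± 134 normalized counts with the antibody and 3626 ± 267 in Combo (mean ± SD, n = 3 libraries).

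Of 18 inflammatory cytokine genes, 7 rose (Il1a, Il1b, Il27, Lcn2, Nos2, Osm and Saa3), where 3.73% of all genes did, and 2 fell (Il6 and Csf3), close to the 10.5% of all genes, with a median log2 fold change of 0.65. Il6 (chr5:30013114-30019981 on GRCm38) gave 5533, 4924 and 4838 normalized counts with the antibody and 1194, 1208 and 962 in Combo (log2 fold change -2.18 ± 0.08, adjusted p = 1.72e-11 by edgeR). Csf3, the granulocyte colony-stimulating factor, gave 2157, 2082 and 2158 with the antibody and 431, 579.7 and 357 in Combo (log2 fold change -2.23 ± 0.13). Both are known products of IL-17A signalling in stromal cells, and their levels in Combo were the lowest of the 5 groups, since Il6 averaged 18427 in Vehicle, 13771 with the agonist and 7613 in WT, and Csf3 6452, 3675 and 797.

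Il1b, the inflammasome cytokine IL-1β, went the other way, from 3025, 3403 and 3462 normalized counts with the antibody to 11231, 12082 and 11461 in Combo (log2 fold change 1.81 ± 0.07, adjusted p = 2.86e-11 by edgeR). Il1a gave 123, 222 and 223 with the antibody and 1444, 1446 and 1310.4 in Combo (log2 fold change 2.89 ± 0.28), and Nos2, the inducible nitric oxide synthase, 219, 113 and 96.6 and 708, 563 and 819 (log2 fold change 2.28 ± 0.34). The antibody and Combo libraries of these genes did not overlap, as for 43.4% of all genes. Saa3, an acute-phase serum amyloid, gave 1931, 1762 and 1902 with the antibody and 26825, 27092 and 25409.9 in Combo (log2 fold change 3.83 ± 0.07). Tnf was not called (log2 fold change 0.27 ± 0.10), and none of 20 TNF and NF-κB genes was by edgeR or DESeq2 (12 at an unadjusted p below 0.05), with a median of 0.18.

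Of 26 CC and CXC chemokines, 3 rose and 1 fell, where 3.73% and 10.5% of all genes did. Cxcl5 gave 166, 153 and 133 normalized counts with the antibody and 2501, 2486 and 1997 in Combo (log2 fold change 3.95 ± 0.31), and Cxcl3 gave 191, 165 and 188 and 812, 634 and 840.1 (log2 fold change 2.07 ± 0.14). Both attract neutrophils through CXCR2. Cxcl13, which attracts B cells, gave 367, 427 and 411 and 2510.5, 3063 and 2964 (log2 fold change 2.82 ± 0.10, adjusted p = 1.33e-11 by edgeR). Cxcl1, another CXCR2 ligand, fell from 13983, 14967 and 15334 to 7434, 7128 and 6531 (log2 fold change -1.07 ± 0.06), so that ligands of 1 receptor did not share a direction. Without Combo replicate 3, 2 chemokines fell. Ccl2, the main monocyte chemokine, was not called (log2 fold change -0.25 ± 0.05).

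Of 25 interferon-stimulated genes, 4 rose and none fell, a share above the 3.73% of all genes, with a list median of 0.28. Rsad2, the antiviral enzyme viperin, gave 3602, 3464 and 3432 normalized counts with the antibody and 10244, 11048 and 9558 in Combo (log2 fold change 1.56 ± 0.06, adjusted p = 3.63e-11 by edgeR). Ifit1 gave 1676, 2021 and 1712 and 4336, 4073 and 4064 (log2 fold change 1.21 ± 0.06), and Oas3 375, 452 and 297 and 1571, 1106 and 1832 (log2 fold change 2.00 ± 0.30). Zbp1 (log2 fold change 1.04 ± 0.09) fell inside the limit without antibody replicate 1 (0.951) or Combo replicate 1 (0.999). Without Combo replicate 3, 1 member of the list fell. All 4 genes lay far below Vehicle, in which Rsad2 averaged 203260 and Ifit1 105205 normalized counts.

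The promoters of Rsad2, Ifit1 and Oas3 are shown because each contains the interferon response motif (GAAA, 2 bases of any kind, then GAAA), searched on both strands and written in capitals where found. Each line gives the 150 bases before the RefSeq transcription start (GRCm38.p6, 5′ to 3′ on the strand of the gene), and Saa3 is given as the gene of the cytokine list that holds the motif.
Rsad2, chr12:26456453-26456602, minus strand: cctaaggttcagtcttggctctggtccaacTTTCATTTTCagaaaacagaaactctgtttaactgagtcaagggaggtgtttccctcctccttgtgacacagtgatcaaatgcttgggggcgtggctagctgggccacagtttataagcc
Ifit1, chr19:34640739-34640888, plus strand: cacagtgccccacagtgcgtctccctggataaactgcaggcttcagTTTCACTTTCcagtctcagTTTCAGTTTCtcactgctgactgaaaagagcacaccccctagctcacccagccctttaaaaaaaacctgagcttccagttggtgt
Oas3, chr5:120777660-120777809, minus strand: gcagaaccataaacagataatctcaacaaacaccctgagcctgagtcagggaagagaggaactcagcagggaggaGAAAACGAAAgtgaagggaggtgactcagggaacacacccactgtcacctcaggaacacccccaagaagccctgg
Saa3, chr7:46715677-46715826, minus strand: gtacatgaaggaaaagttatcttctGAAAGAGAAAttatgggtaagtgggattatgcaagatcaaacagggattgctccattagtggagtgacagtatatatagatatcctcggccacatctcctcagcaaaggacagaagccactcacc

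The match began 120 bases before the start in Rsad2, 104 and 85 bases before it in Ifit1, 75 in Oas3 and 125 in Saa3. Over windows of 300 bases (250 before and 50 after each start), 11 of 21 windows of the interferon-stimulated genes held the motif (52.4%), against 534 of 16842 windows of all tested genes (3.17%). It was present in 4.1% of windows of genes that rose and 2.36% of those of genes that fell. The cyclic AMP response element TGACGTCA was present in 1.07% of windows of genes that rose, 2.24% of those that fell and 2.68% of all. These matches describe the letters of the windows and were not tested.

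The largest coordinated increase among blood cell genes was that of neutrophils. All 14 neutrophil markers rose, where 3.73% of all genes did, with log2 fold changes from 1.45 to 5.50 and a median of 4.82. S100a8, a subunit of calprotectin (chr3:90668978-90670035 on GRCm38), gave 3584, 3370.5 and 3375 normalized counts with the antibody and 121618, 124017 and 119394 in Combo (log2 fold change 5.14 ± 0.04, adjusted p = 1.15e-19 by edgeR). Ltf, the lactoferrin of secondary granules, gave 1756, 1721 and 1539 and 76114, 75857 and 75736 (log2 fold change 5.50 ± 0.08), and Ngp, a granule protein of immature neutrophils, 2963, 2816 and 2716 and 91502, 93395 and 91814 (log2 fold change 5.03 ± 0.06).

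Genes of the primary granules of promyelocytes rose with them. Mpo, the myeloperoxidase, gave 199.8, 207 and 125 normalized counts with the antibody and 6934, 7453 and 7295 in Combo (log2 fold change 5.34 ± 0.31), and Elane, the neutrophil elastase, 86.2, 40.6 and 86.3 and 2048, 2189 and 2279 (log2 fold change 4.93 ± 0.28). Receptors of mature neutrophils increased less, with Csf3r at log2 fold change 1.45 ± 0.22 and Cxcr2 at log2 fold change 3.68 ± 0.49. The summed level of the list was 17634 to 18212 normalized counts with the antibody and 467615 to 478312 in Combo, beside 852018 to 903279 in Vehicle, 10150 to 10679 with the agonist alone and 17881 to 18292 in WT. Chil3, Lcn2, Il1b, Cxcl3, Mmp9 and other genes that rose are also made by neutrophils, and the part of these cells in their increase was not tested.

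Erythroid genes were also among those that rose. Of 5 tested, 3 rose (3.73% of all genes did), and Alas2, the first enzyme of heme synthesis in red cell precursors, gave 37257, 38119.8 and 37546 normalized counts with the antibody and 174138, 171598 and 176816 in Combo (log2 fold change 2.21 ± 0.03, adjusted p = 6.22e-17 by edgeR). Slc4a1, the anion exchanger of red cells, gave 624, 526 and 706 and 6027, 5363 and 5411 (log2 fold change 3.18 ± 0.25). Of 8 platelet genes, Ppbp rose (log2 fold change 4.58 ± 0.33; 2 rose without antibody replicate 3 and 1 fell without Combo replicate 1), while Pf4, which macrophages also express, had a log2 fold change of -0.78 ± 0.07.

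Mast cell genes fell. Of 13 genes of mast cells, basophils and eosinophils, 5 of mast cells and their precursors fell (Tpsb2, Mcpt4, Gata2, Cpa3 and Cma1), where 10.5% of all genes did. The eosinophil granule genes Epx and Prg2 rose, where 3.73% of all genes did. Tpsb2, a tryptase, gave 22518, 22792 and 21262 normalized counts with the antibody and 8386, 8819.9 and 8855 in Combo (log2 fold change -1.35 ± 0.06, adjusted p = 7.54e-11 by edgeR). Epx, the eosinophil peroxidase, gave 0, 0 and 0 counts with the antibody and 140, 189 and 223 in Combo, at least 74-fold higher. Members of 1 list thus moved in both directions.

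**Figure D3:**
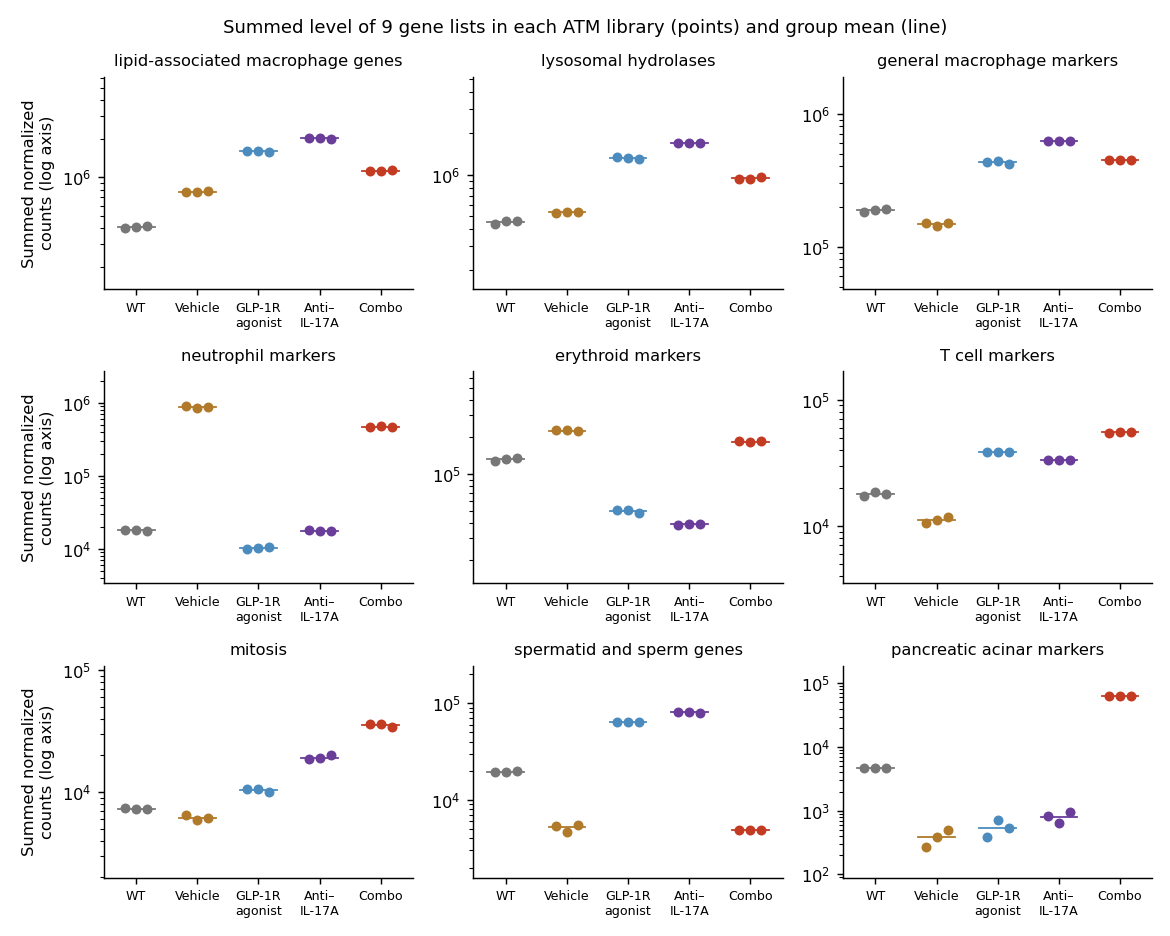
Each panel gives the summed normalized counts of a gene list (vertical log axis) in each ATM library (points) and the mean of each of the 5 groups (lines). Combo lies below anti–IL-17A antibody for lipid-associated, lysosomal, macrophage and sperm genes and above it for neutrophil, erythroid, T cell, mitotic and pancreatic genes.

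Of 15 T cell markers, 6 rose (Cd4, Cd5, Lck, Cd247, Tcf7 and Cd6), where 3.73% of all genes did, 9 were not called and none fell, with a median log2 fold change of 0.88. Cd4, the coreceptor of helper T cells, gave 1487, 1388 and 1881 normalized counts with the antibody and 4732, 5355 and 5358 in Combo (log2 fold change 1.70 ± 0.15, adjusted p = 5.13e-07 by edgeR). Cd8a and Cd8b1, the coreceptor of cytotoxic T cells, were not called and had negative log2 fold changes of -0.51 ± 0.29 and -0.48 ± 0.22. Lck, the kinase bound to both coreceptors, gave 3309.5, 3410.3 and 3765 and 8491, 7964 and 7937 (log2 fold change 1.22 ± 0.08).

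Of 18 immune checkpoint genes, Icos, Cd96 and Ctla4 rose and Pdcd1 fell, where 3.73% and 10.5% of all genes did. Pdcd1, which encodes PD-1, gave 3741, 4228 and 4569 normalized counts with the antibody and 1359, 1653 and 1594 in Combo (log2 fold change -1.44 ± 0.09, adjusted p = 1.04e-08 by edgeR). Icos, a costimulator of activated T cells, gave 1505, 1311 and 1409 and 3299, 3836 and 3733 (log2 fold change 1.36 ± 0.11). Ctla4 had a log2 fold change of 1.02 ± 0.10, which was 0.998 and 0.997 without antibody replicate 1 or 2 and 0.964 without Combo replicate 2, inside the limit. Cd274, which encodes the PD-1 ligand PD-L1, was not called (2577 ± 64.9 and 4647 ± 664 normalized counts, mean ± SD, n = 3 libraries).

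None of 13 endothelial, 15 dendritic cell and 9 smooth muscle genes was called by edgeR (4, 5 and 8 of them at an unadjusted p below 0.05), and DESeq2 called 1 smooth muscle gene higher, as edgeR did without Combo replicate 3. Of 14 fibroblast genes only Thy1 rose, a gene that T cells also express. Of 11 mesothelial genes, 6 rose, where 3.73% of all genes did. Msln, the mesothelin of the lining of the abdominal cavity, gave 269.8, 198 and 323 normalized counts with the antibody and 1779, 1969 and 2222 in Combo (log2 fold change 2.92 ± 0.15, adjusted p = 8.91e-10 by edgeR). Of 14 adipocyte genes, Car3 and Retn rose, but Retn (1.06 ± 0.31) lost its call without antibody replicate 3 (1.001), Combo replicate 2 (0.984) or Combo replicate 3 (1.00). Among B and plasma cell genes Mzb1, a chaperone of antibody-producing cells, rose (log2 fold change 2.73 ± 0.20, and a second gene rose without antibody replicate 2 or 3 or Combo replicate 3, while 1 fell without Combo replicate 1), with 57.2% of its exon length shared with other genes.

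Some genes of cell division rose in Combo. Of 26 genes of mitosis, 6 rose and none fell (3.73% of all genes rose), with a median log2 fold change of 0.72, and of 30 genes of DNA replication 3 rose, 27 were not called and none fell, with a median of 0.57. Mki67, which encodes the proliferation antigen Ki-67, gave 655, 616 and 619 normalized counts with the antibody and 2389.5, 2245 and 2198 in Combo (log2 fold change 1.85 ± 0.22, adjusted p = 9.08e-06 by edgeR). Top2a, the topoisomerase of dividing cells, gave 1327, 1234 and 1600.4 and 2817, 2901 and 3237 (log2 fold change 1.11 ± 0.13), and Rrm2, a subunit of ribonucleotide reductase, 1314, 1234 and 1374 and 3271, 3213 and 2883 (log2 fold change 1.26 ± 0.17). In a fit of the 6 libraries alone, 10 genes of mitosis rose. The precursors of neutrophils and red cells, whose genes rose, divide as well, and their part in these values was not tested.

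Antigen presentation and energy metabolism gave few calls, where 3.73% of all genes rose and 10.5% fell. None of 15 genes of MHC class II presentation was called by edgeR or DESeq2 (7 at an unadjusted p below 0.05), and their median log2 fold change was -0.31. Cd74, the invariant chain, had 206730 ± 6611 normalized counts with the antibody and 135400 ± 963 in Combo (mean ± SD, n = 3 libraries, log2 fold change -0.61 ± 0.04). None of 17 genes of MHC class I presentation was called either (13 at an unadjusted p below 0.05, median 0.28). The 32 nuclear genes of the respiratory chain lay within a log2 fold change of -0.29 to 0.18, the narrowest range of the lists named here. Of 27 glycolysis genes, the lactate exporter Slc16a3 rose (log2 fold change 1.30 ± 0.10) and Ldhb fell (log2 fold change -1.10 ± 0.10). Of 12 heat shock genes, Hsph1 (log2 fold change -1.31 ± 0.07) and Bag3 (log2 fold change -1.08 ± 0.06) fell. These genes respond to tissue dissociation, and their part in other results was not tested.

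**Figure D4:**
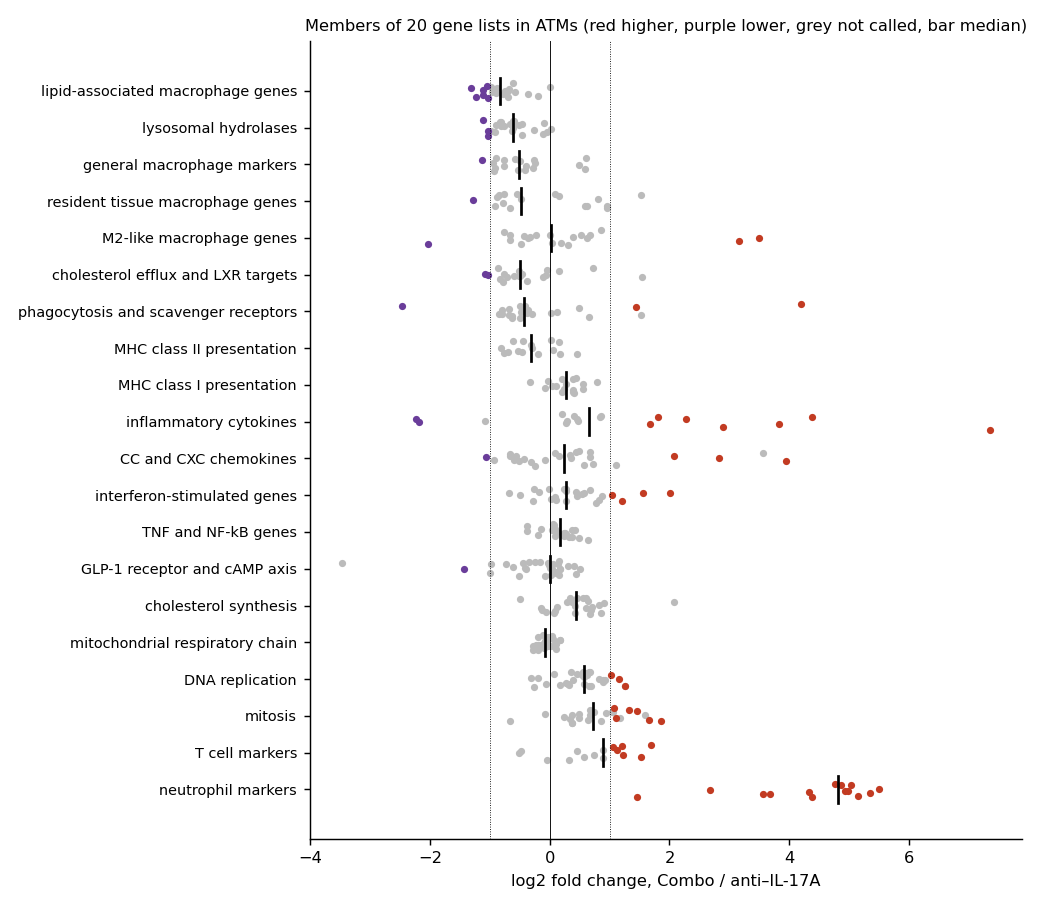
Each point is a gene of one of 20 lists at its log2 fold change of Combo over anti–IL-17A antibody (horizontal axis), red where called higher, purple where called lower and grey where not called. Black bars are list medians and dotted lines the fold limit, and neutrophil markers stand apart at a median of 4.82.

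Genes around the targets of both agents were examined next. Il17a itself was scarce, with 52, 44 and 34 counts with the antibody and 136, 93 and 73 in Combo, and was not called by edgeR (log2 fold change 1.47 ± 0.65, adjusted p = 0.109). It was called by DESeq2 and in the fit of 6 libraries. Its receptor genes Il17ra (log2 fold change 0.44 ± 0.09) and Il17rc (log2 fold change 0.01 ± 0.17) were not called. Of 16 genes of the IL-17A axis, 2 rose (3.73% of all genes did) and none fell, with a median log2 fold change of 0.26. Il17re, a receptor of IL-17C, was one of them, with 163, 110.2 and 13.6 normalized counts with the antibody and 403, 445 and 302 in Combo.

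Of 32 genes of the GLP-1R and cyclic AMP axis, 1 fell, a share below the 10.5% of all genes, and none rose. The median log2 fold change was -0.00, close to that of all genes. The gene that fell, Nr4a2, an orphan nuclear receptor induced by cyclic AMP among other signals, gave 7451, 6387 and 5843 normalized counts with the antibody and 2266, 2240.2 and 2762 in Combo (log2 fold change -1.44 ± 0.10, adjusted p = 3.49e-08 by edgeR). The related Nr4a1 was not called (log2 fold change 0.10 ± 0.04), nor was Crem (-0.99 ± 0.08), a cyclic AMP-responsive repressor. The decreases numbered 2 with DESeq2, without antibody replicate 1 and without Combo replicate 2. Glp1r was not analysed here.

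The same agonist contrast was available without antibody, as GLP-1R agonist over Vehicle, in libraries that the comparison of Combo with antibody does not share. That contrast called 5417 of 17059 genes (31.8%). The difference between both agonist effects was called in 6122 genes (35.9%), 2202 with a higher (12.9%) and 3920 with a lower (23%) effect in the presence of antibody. In the libraries without antibody the sex-linked genes were split in the opposite direction, so that Xist fell and the Y-linked genes rose with the agonist, and the difference of both effects holds this split on both sides.

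For 15 genes the effects were set side by side. Each was the gene of smallest adjusted p among the called members of a list selected for this. Other lists with called members were left out, as was a gene at 3 counts or fewer in every library of a group. S100a8 had a log2 fold change of -7.70 ± 0.05 with the agonist alone and 5.14 ± 0.04 when the agonist was added to antibody. Saa3 had -5.47 ± 0.07 without antibody and 3.83 ± 0.07 with it. Ctsd had 1.82 ± 0.02 and -1.03 ± 0.02. The acute-phase and neutrophil genes were thus lower with the agonist alone and higher when it was added to antibody, and the lysosomal gene the reverse. Msln (2.71 ± 0.16 and 2.92 ± 0.15) and Lck (1.71 ± 0.09 and 1.22 ± 0.08) were higher in both, and the difference was not called for either. For Msln the difference was 0.21 ± 0.21 (adjusted p = 0.449 by edgeR) and for Lck -0.49 ± 0.12 (adjusted p = 0.00266 by edgeR), the latter within the fold limit. These 2 genes do not stand for their lists. Among 15 T cell markers the difference was called lower for 8 and higher for 0. Among 11 mesothelial genes it was called higher for 6 and lower for 1. Over all genes 12.9% were called higher and 23% lower.

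**Figure D5:**
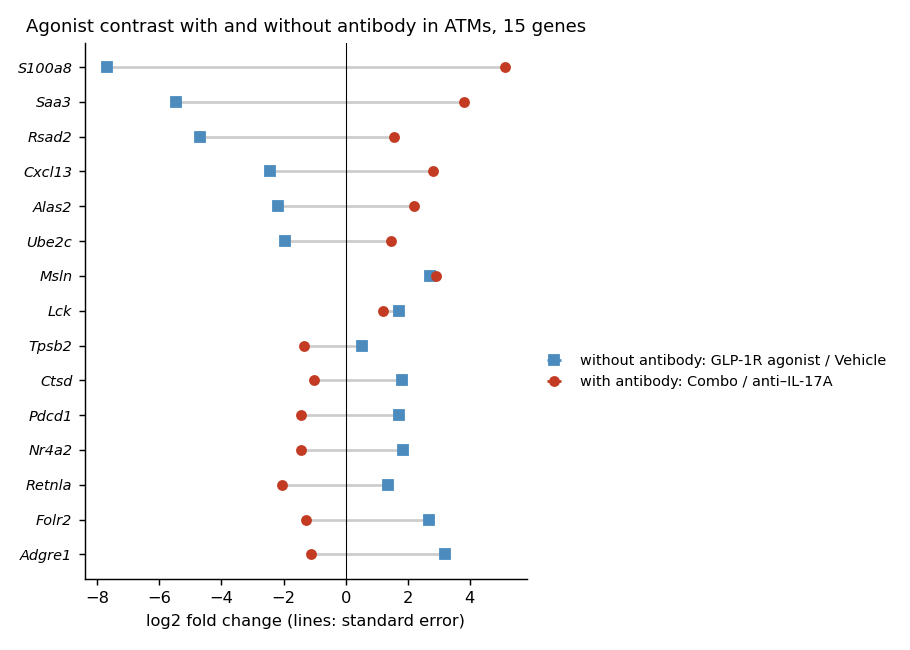
The log2 fold change of the agonist (horizontal axis) is given for 15 genes without antibody (blue squares, GLP-1R agonist over Vehicle) and with antibody (red circles, Combo over anti–IL-17A antibody), with lines for the standard error. The symbols lie on opposite sides of 0 for 13 genes and on the same side for Msln and Lck.

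The levels show where the groups stood. Vehicle had the highest neutrophil, interferon and inflammatory cytokine levels of the 5 groups and a lower lipid-associated macrophage level than either antibody group, and Combo lay between Vehicle and the antibody group for these sums. For Ctsd the means were 72945 normalized counts in Vehicle, 257220 with the agonist, 345866 with the antibody and 169017 in Combo, and for S100a8 they were 318239, 1529, 3443 and 121676. Arg1 and Mki67 did not lie between them, with Arg1 at 1722 in Vehicle and 7162 in Combo and Mki67 at 188 and 2277.

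In BM, the same contrast called 757 of 13353 genes (5.67%), 139 higher (1.04%) and 618 lower (4.63%). Of the genes called in ATMs, 903 were in the BM table. Of these 903, 113 (12.5%) were also called in BM, 72 of them in the same direction. The 113 were 15.9% of the 712 genes called in BM that were in the ATM table. The 14 neutrophil markers had a median log2 fold change of 0.49 in BM, and S100a8 had one of 0.66, within the fold limit (adjusted p = 0.000698 by edgeR). Saa3 rose in both tissues (2.80 in BM, adjusted p = 4.51e-21 by edgeR), as did Cxcl13 (2.43). Arg1 (-1.73) and Il1b (-1.56), which rose in ATMs, fell in BM, where Arg1 had only 5 to 29 counts a library. Of 15 genes of MHC class II presentation, 9 fell in BM, and the difference between the tissues was not tested.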

How the data were processed

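Per the labels and the methods of the study, the authors mapped the reads of unstranded paired-end libraries with STAR 2.7.2a (mm10) and made counts on GENCODE genes with featureCounts 2.0.1, where a read on more than 1 gene counts for each. The deposited values are raw counts per gene, in 1 table per tissue. They list 0 of 13 mitochondrially encoded genes, and the smallest gene total over the 15 ATM libraries was 54, so that low genes had been left out before.

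The 15 ATM libraries were fitted together with edgeR 4.0.16 (R 4.3.3) by the robust quasi-likelihood method after TMM scaling. filterByExpr left out 0 genes. Tests were 2-sided, and p was adjusted over all 17059 genes by the Benjamini-Hochberg method. Standard errors came from the F statistic. Normalized counts are counts scaled to the mean effective library size of the 15 libraries. Where every library of a group held 3 counts or fewer, a fold is a bound against 3 counts per library. In simulated data for this comparison, with 200 of 17059 genes changed by 2 on the log2 scale, edgeR recovered 163 with 7 false calls and DESeq2 1.42.0 recovered 180 with 27. The changed genes were well counted, all other genes had the same mean in every group, and counts were drawn with the fitted dispersion. The simulation thus held no genes absent from 1 group, and its rates cannot be carried over to the real data.

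Groups came from the sample labels, which give 3 mice and 3 biological replicates per group and 1 batch, and do not tie each library to a mouse. p-values measure only the spread between these libraries. Replicates differed by more than sampling noise, and the median coefficient of variation of genes with 1000 counts or more was 6.55% in Combo and 6.87% with the antibody. Where abundant, transcripts of other organs also varied little. The acinar sum was 62056 to 63200 in Combo, and the sperm sum 78890 to 81361 with the antibody, though the low acinar sum there was 629.9 to 970.3. Whether the libraries of a group came from separate mice was not tested.

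The members and gene lists were chosen with earlier results of these data known, and the sperm, kidney, islet and mucosal lists after their values were seen. Lists are described by counts and medians, without a set test. Named genes were the 10 largest changes in each direction (called, at least 50 normalized counts on average, groups not overlapping, predicted genes and antigen receptor segments left out), up to 4 called members of each list by adjusted p, the genes of both drug targets, and genes that the study named. Further list members were named after their values were seen. Alternatives were other scaling, DESeq2, other filters, no fold limit, a replicate block, fits of fewer groups and leaving out each library. Gene positions are from GENCODE M21 (16427 of 17059 symbols matched) and promoters from RefSeq (GRCm38.p6, 13414 genes matched). Some named items are not reported here.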

Additional observations from a re-analysis of the deposited data

Results flagged for a closer look

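For 13 of the 15 genes whose agonist effect was given with and without antibody, the difference between both effects was called by edgeR's quasi-likelihood test (adjusted p below 0.05 over all genes, 3 libraries in each of 4 groups). The effect with antibody minus that without was 12.84 ± 0.06 on the log2 scale for S100a8 (adjusted p = 6.35e-23), 9.30 ± 0.10 for Saa3, 6.24 ± 0.09 for Rsad2, 5.25 ± 0.14 for Cxcl13, 4.40 ± 0.04 for Alas2 and 3.40 ± 0.14 for Ube2c. These genes had a negative log2 fold change with the agonist alone and a positive one in Combo. Ube2c, taken from the mitosis list, does not stand for that list. With the agonist alone, the list of 26 lay at a positive log2 median, 1.61 over Vehicle. Between both effects, 9 of its members were called lower and 3 higher. The difference was negative for Adgre1 (-4.33 ± 0.18), Folr2 (-3.95 ± 0.11), Retnla (-3.40 ± 0.08), Nr4a2 (-3.29 ± 0.15), Pdcd1 (-3.16 ± 0.13), Ctsd (-2.85 ± 0.03) and Tpsb2 (-1.89 ± 0.08). Called differences were common, at 35.9% of all genes. The 15 genes had been chosen for a called change of Combo over antibody, which is a part of this difference. Their count of called differences therefore cannot be set against that share. Xist and the Y-linked genes differed between the groups on both sides of this difference, in opposite directions, and their share in it cannot be told apart from that of the treatment.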

How the results depend on the processing

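The 2429 genes called became 4875 without the fold limit, 768 (413 higher and 355 lower) with at least 10 counts in every ATM library, and 920 (455 higher and 465 lower) with at least 10 counts in each of the 6 libraries, an alternative added after the data were seen. The share of increases was 26.2% of calls, and 53.8% and 49.5% under these filters, which remove genes absent from one group. Leaving out 1 library gave 2209 to 2322 calls, of which 2092 to 2178 were among the 2429. DESeq2 called 2671 (2381 of them shared), DESeq2 size factors 2433, and the fit of 6 libraries 2374. A replicate block gave 2327 calls (2288 shared) and lost the calls of Tyro3 and Ppara among the named genes. The correlations of the deviations of Combo and antibody replicates of the same number were -0.00, -0.01 and 0.01. Of 3 Combo libraries, 1 correlated best with its own number. These values showed no pairing by replicate number, but with 3 libraries a group they cannot exclude it. The difference between the agonist effects was called in 6122 genes and in 3887 with at least 10 counts in every library, while leaving out 1 library gave 5846 to 6205 and the block 5973. Besides the genes given in the text, Ppara, Dgat1, Lig1 and Eomes lost their calls without 1 of the 6 libraries. No named gene reversed under any alternative run. DESeq2 size factors moved the median of all genes by -0.02. Genes at 3 counts or fewer in a group give bounds only.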

Other observations

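Islet genes, listed after their values were seen, followed the acinar genes in part. Ins2 gave 9, 0 and 0 counts with the antibody and 136, 171 and 176 in Combo, and Ins1 0, 0 and 0 and 72, 47 and 45, while Pcsk2, a prohormone convertase of endocrine and nerve cells, gave 47, 0 and 29 counts with the antibody and 0, 0 and 0 in Combo and was the 1 islet gene that fell, and none fell without antibody replicate 1 or 3, or Combo replicate 1 or 2. Reg3g and Reg3b, antimicrobial lectins of gut epithelium, gave 18, 11 and 8 and 0, 0 and 0 counts with the antibody and 5709, 5376 and 5141 and 1605, 1586 and 1469 in Combo. Of 28 genes of extracellular matrix and remodelling, Mmp9 rose (log2 fold change 2.67 ± 0.07) and Mmp12 fell. With no fold limit 17 were lower at an adjusted p below 0.05 by edgeR (17.9% of all genes were), among them the collagen genes Col3a1 (-0.40 ± 0.06) and Col6a3 (-0.50 ± 0.10). Of 24 phagocytosis and scavenger receptors, Marco (16.1, 35.2 and 12 normalized counts with the antibody and 384, 389 and 397 in Combo) and Tyro3 rose and Stab2 (437, 304 and 471 and 69.1, 62.3 and 88.2) fell, where 3.73% and 10.5% of all genes did. Tyro3 (1.44 ± 0.47) lost its call without antibody replicate 2 (1.12) or 3 (1.31) and without Combo replicate 2 (1.19). Fpr1 and Mapk13, both named by the study for ATMs, gave 115, 88 and 186 and 46.3, 26.8 and 80.7 normalized counts with the antibody and 2133, 2464 and 2189 and 710.1, 791 and 813 in Combo, where Fpr1 is a formyl peptide receptor of neutrophils and monocytes. Of 50 genes that the study named for ATMs on these samples, and which are thus no independent evidence of a direction, 9 rose and 1 fell, where 3.73% and 10.5% of all genes did.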
